A study of Mus musculus with 6 samples.

Results

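The 10 genes described here are the factors that direct the formation of fat cells, together with the PPAR family of nuclear receptors. They are Pparg, Ppara and Ppard, the C/EBP genes Cebpa, Cebpb and Cebpd, the transcription factor genes Ebf1, Klf15 and Zfp423, and Dlk1, which is not a transcription factor but a surface protein that holds preadipocytes back. Their probes were found on the arrays by gene name, current or older, and by nothing measured. All 10 genes had a probe, with 16 probes among the 41174 on the array, and all 10 were among the 21057 genes tested of 27641 genes represented.

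The tissue was abdominal white fat (WAT), and its RNA was read on 6 one-colour arrays. The hNAG-1 group was 3 pools of tissue from mice carrying human NAG-1, also called GDF15, a secreted member of the TGF-beta family, and the WT group was 3 pools from mice without the transgene. All were C57/BL6 females at 30 wk of age, 6 mice per genotype, with 2 mice in each pool. The hNAG-1 mice came from 1 transgenic line and, per the study's methods, express the transgene in most tissues and highly in white and brown fat, the promoter not being given in the sources used here. The transgene itself was not checked on this mouse array. Adipoq, which encodes the fat cell hormone adiponectin, was 250.7 to 314 times the 75th percentile signal of its array on all 6, and Plin1, which coats the lipid droplet, 75.8 to 125 times, so both genotypes carried the defining RNA of the tissue.

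Fat cells form by the commitment of a mesenchymal precursor and its later differentiation, which a cascade of transcription factors drives. C/EBP-beta and C/EBP-delta appear first and switch on PPAR-gamma and C/EBP-alpha, which then maintain each other and together turn on the genes of the mature adipocyte. EBF1 and the Krüppel-like factor KLF15 act on the same cascade, ZFP423 commits precursors to it, and DLK1 opposes it. The PPARs bind DNA paired with a retinoid X receptor and respond to fatty acids. PPAR-gamma governs lipid storage, and PPAR-alpha and PPAR-delta govern fatty acid oxidation.

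Promoter sequences of 4 of these genes are printed here. Pparg and Zfp423 are shown since they alone hold the C/EBP consensus, and Cebpa and Ebf1 since they are the genes whose genotype difference is examined most closely below. Each is the 250 bases before a transcription start in RefSeq on GRCm38.p6, written 5′ to 3′ on the gene's own strand. Capitals mark TTGCNNAA, the C/EBP consensus, in Pparg and Zfp423, and TATAAA, the TATA box, in Cebpa, on either strand. The Ebf1 promoter shown holds none of the 7 motifs searched.
Pparg, downstream start, chr6:115421816-115422065, plus strand: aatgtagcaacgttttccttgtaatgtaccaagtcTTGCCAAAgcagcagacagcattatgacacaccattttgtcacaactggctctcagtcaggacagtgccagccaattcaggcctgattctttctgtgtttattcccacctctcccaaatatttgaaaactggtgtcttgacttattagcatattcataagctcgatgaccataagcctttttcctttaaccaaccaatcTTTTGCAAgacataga
Zfp423, upstream start, chr8:87959596-87959845, minus strand: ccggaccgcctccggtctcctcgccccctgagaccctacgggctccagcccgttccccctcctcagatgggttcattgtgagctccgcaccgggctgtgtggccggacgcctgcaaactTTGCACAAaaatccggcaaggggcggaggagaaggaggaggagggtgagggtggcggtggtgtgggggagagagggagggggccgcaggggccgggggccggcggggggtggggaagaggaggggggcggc
Cebpa, chr7:35119043-35119292, plus strand: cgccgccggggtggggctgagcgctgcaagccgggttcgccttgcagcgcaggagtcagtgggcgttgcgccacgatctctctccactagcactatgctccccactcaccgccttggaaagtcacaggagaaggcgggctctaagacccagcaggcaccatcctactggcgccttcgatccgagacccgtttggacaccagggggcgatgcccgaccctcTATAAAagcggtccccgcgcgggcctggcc
Ebf1, upstream start, chr11:44617850-44618099, plus strand: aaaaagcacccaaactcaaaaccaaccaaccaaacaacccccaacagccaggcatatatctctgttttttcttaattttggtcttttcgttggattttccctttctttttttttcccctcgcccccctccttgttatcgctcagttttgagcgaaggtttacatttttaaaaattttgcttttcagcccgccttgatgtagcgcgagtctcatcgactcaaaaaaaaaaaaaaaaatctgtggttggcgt

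The RefSeq table matched 9 of the 10 genes, with 13 promoters among them, and Cebpd had no entry. TTGCNNAA occurred in 2 of the 13 promoters, against 9.56% of the 32851 mouse promoters in the table. In the downstream Pparg promoter it began 215 and 16 bases before the start, and in Zfp423 131 bases before it. TATAAA was found in 2 of the 13, Cebpa 30 bases and the second Pparg promoter 29 bases before the start, against 12.4% of all promoters. The GC box GGGCGG was found in 8 of the 13 (32.7% of all) and the E-box CACGTG in 1, that of Klf15, with 2 copies (6.02% of all). The EBF consensus, TCCC and GGGA with 2 bases between (0.779% of all), the direct repeat that PPAR and retinoid X receptor pairs bind, a pair of AGGTCA with 1 base between (0.0335% of all), and the CRE motif TGACGT (6.47% of all) were in none of them. Both strands were searched, no match of one motif overlapped one of another in the sequences printed, and a match describes the letters only.

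The values below are the scanner's processed signal divided by the 75th percentile of its array, called scaled signal, so a value of 1 is the signal that 75% of spots lie under. The 75th percentile itself was 656 to 897 on hNAG-1 arrays and 957 to 1028 on WT arrays. Fold changes are hNAG-1 over WT on the log2 scale, from limma across all genes. One slide held all 3 WT arrays and hNAG-1 replicate 1, and the other held hNAG-1 replicates 2 and 3, so the within-slide difference, replicate 1 against the WT arrays, is given beside the main one for each of the 10 genes and, for genes named from lists, where the 2 differ by over 1.5 times. The arrays resembled each other closely, with Pearson r across genes of 0.972 to 0.985 for every pair. WT replicate 2 stood apart in brown fat and pancreas genes, and WT replicate 1 in genes that respond to stress, as given beside the results they touch. The scaled signal of 8 skeletal muscle genes summed to 66.7, 348 and 84.4 in hNAG-1 pools, against 228, 107 and 59.45 in WT pools. It was thus highest in hNAG-1 replicate 2 and next in WT replicate 1.

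No gene on the array passed an adjusted p of 0.05 in limma (0% of 21057), and none of the 10 did, their adjusted p-values lying between 0.257 and 0.858. With a variance trend and robust variances, limma called 165 genes (0.784%), again none of the 10. Among the genes named below from lists, Agpat2, Sncg, Ccn5, Mlxipl and Mest were called in that fit and in no other. At an unadjusted p under 0.05 there were 2 of the 10, Cebpa higher and Ebf1 lower in hNAG-1 WAT, against 13.3% of all genes in either direction, 9.67% higher and 3.62% lower. The arrays of the 2 genotypes did not overlap for 3 of the 10, Cebpa higher and Ebf1 and Cebpd lower, against 20.9% of all genes, 15.0% higher and 5.93% lower. Both counts are near what the background shares give for 10 genes. Of the 10, 4 had a fold change above 0 and 6 below, with a median of -0.15, and over all genes 61.3% lay above 0 with a median of 0.08.

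**Figure D1:**
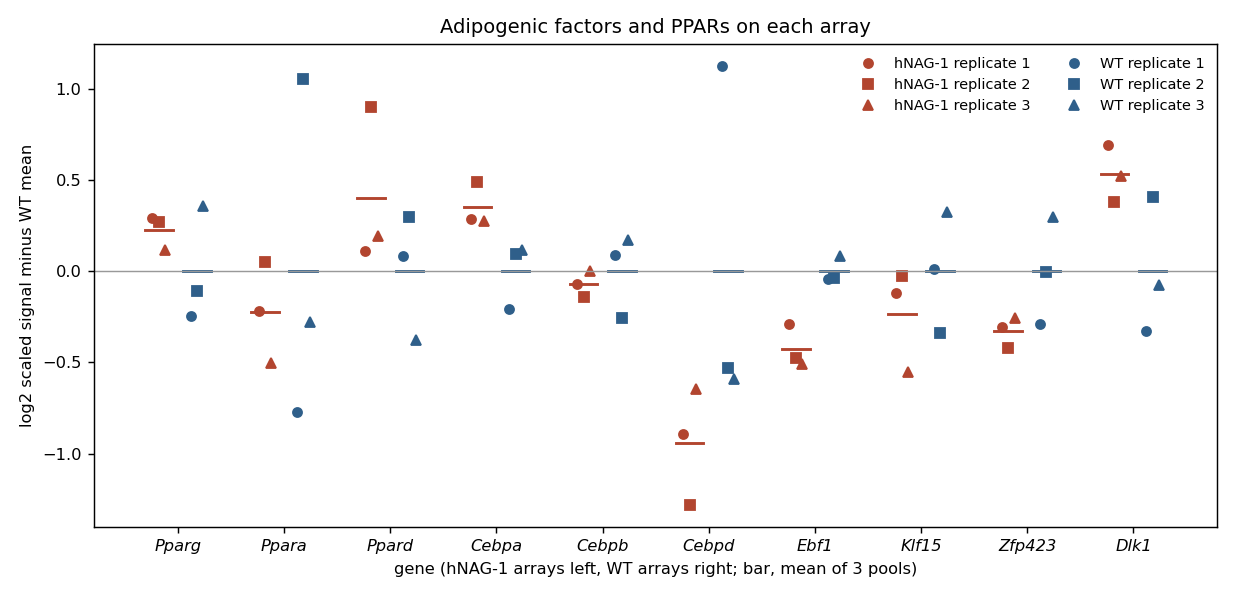
Log2 scaled signal of each gene on each array minus the mean of the 3 WT arrays, with hNAG-1 pools to the left and WT pools to the right and a bar at each mean. The 3 hNAG-1 points of Cebpa lie above and those of Ebf1 and Cebpd below all WT points, and WT replicate 2 for Ppara and WT replicate 1 for Cebpd lie far above the other WT pools.

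Pparg encodes PPAR-gamma, the receptor without which fat cells do not form. Its probe (mm7 chromosome 6, 115515909 to 115515968) was spotted 10 times on each array. Its scaled signal was 24.8, 24.4 and 21.9 in hNAG-1 pools, against 17.1, 18.7 and 25.9 in WT pools. The hNAG-1 pools lay close together and the WT pools spread around them, with WT replicate 3 the highest of all 6. The mean was 23.7 ± 1.56 in hNAG-1 and 20.5 ± 4.67 in WT (SD, n = 3 pools each). The difference was 0.23 (SE 0.18, 95% CI -0.23 to 0.68, adjusted p = 0.628 in limma, higher than the WT mean in 3 of 3 hNAG-1 pools), within the spread of the WT pools. It was 0.40 without WT replicate 3 (unadjusted p = 0.0252, adjusted p = 0.248 in limma) and 0.10 without WT replicate 1. Within the slide it was 0.29, and with quantile normalization 0.07, the lowest of the alternatives. The replicate spots measure the error between spots of 1 array. Each pool had 1 array, so error between arrays cannot be told from differences between pools. The coefficient of variation over the 10 spots was 1.79% to 3.49% on each array, while over the pools it was 6.60% in hNAG-1 and 22.7% in WT. In this bulk tissue fewer cells of a type and less RNA per cell cannot be told apart, for this and every gene below.

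Ppara encodes PPAR-alpha, the receptor of fatty acid oxidation in liver and brown fat. Its probe (mm7 chromosome 15, 85883890 to 85883949), also spotted 10 times, gave a scaled signal of 0.765, 0.918 and 0.626 in hNAG-1 pools, against 0.521, 1.84 and 0.731 in WT pools. The hNAG-1 values lay inside the WT range, and WT replicate 2 was over every other pool. The 9 spots of WT replicate 2 that were kept had processed signals of 1691 to 1944, against 510 to 548 over 8 spots in WT replicate 1, so the high value was shared by its spots. The difference was -0.22 (SE 0.48, 95% CI -1.41 to 0.96, adjusted p = 0.858 in limma). Without WT replicate 2 it was 0.30 (adjusted p = 0.693 in limma), so 1 pool decides its direction, and neither value passed the test. Within the slide, which holds that pool, it was -0.22.

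The same pool was high in genes of brown fat and of the pancreas. Ucp1, the uncoupling protein of brown fat, had a scaled signal of 11.8, 3.15 and 6.10 in hNAG-1 pools, against 2.92, 36.3 and 8.76 in WT pools. Cidea, a lipid droplet protein of brown fat, had 55.3, 37.5 and 37.4 in hNAG-1 pools, against 16.1, 79.6 and 28.9 in WT pools. WT replicate 2 was the highest of the 6 for both, as it was for Ppara. Summed over the 7 brown fat genes measured, the scaled signal was 103, 69.2 and 68.9 in hNAG-1 pools, against 40.3, 176 and 58.3 in WT pools. Cpa1, a carboxypeptidase of the exocrine pancreas, had 0.0142, 0.0294 and 0.0175 in hNAG-1 pools, against 0.0215, 5.11 and 0.0642 in WT pools, and the 5 pancreas genes measured of 8 summed to 1.39 to 1.58 in hNAG-1, against 0.967, 13.1 and 1.67 in WT. Ucp1 and Cidea were named after their values were seen, and the part of either tissue in the Ppara value was not tested.

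**Figure D2:**
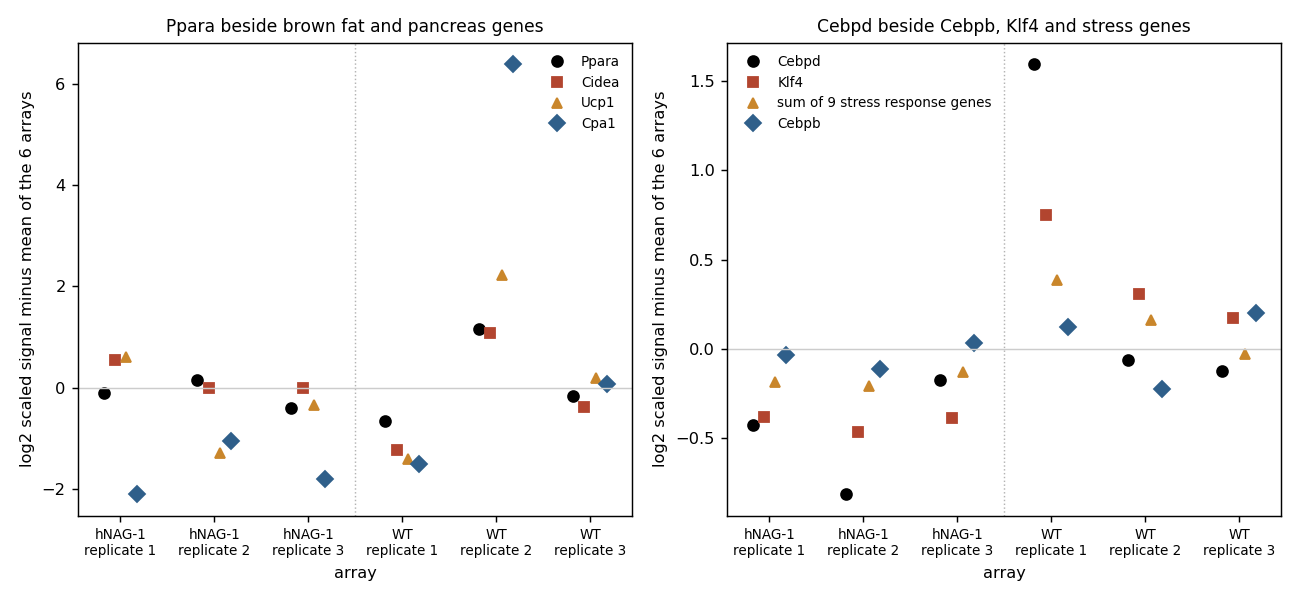
Log2 scaled signal of single genes, or of the sum of 9 stress response genes, on each array minus their mean over the 6 arrays, hNAG-1 pools left of the dotted line and WT pools right. WT replicate 2 is the highest pool for Ppara, Cidea, Ucp1 and Cpa1 (left), and WT replicate 1 for Cebpd, Klf4 and the stress response sum, but not for Cebpb (right).

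Ppard encodes PPAR-delta, the broadly expressed PPAR. Its only probe (mm7 chromosome 17, 26486311 to 26486370) was dim, with a scaled signal of 0.0162, 0.0281 and 0.0172 in hNAG-1 pools, against 0.0160, 0.0185 and 0.0116 in WT pools. It was well above background on 2 of 3 arrays in each genotype, and the pools overlapped. The difference of 0.40 (SE 0.28, 95% CI -0.30 to 1.10, adjusted p = 0.576 in limma) was 0.11 within the slide and -0.45 with normexp background correction, so no direction can be read from it.

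The receptors' partners were measured from a list of 16 genes, the retinoid X receptors and the coactivators and corepressors. Of these, 6 had a fold change above 0 and 10 below, with a median of -0.05 (0.01 within the slide), and 1 was higher and 0 were lower at an unadjusted p under 0.05, with 0 past the adjusted threshold. The 1 was Ppargc1a, the PGC-1-alpha coactivator of mitochondrial and thermogenic genes. Its scaled signal was 0.755, 0.826 and 0.725 in hNAG-1 pools, against 0.505, 0.561 and 0.398 in WT pools. All 3 hNAG-1 pools lay above all 3 WT pools, with a difference of 0.67 (SE 0.16, unadjusted p = 0.00646, adjusted p = 0.231 in limma) and 0.64 within the slide. WT replicate 2, high in Ucp1, was the highest WT pool for Ppargc1a and still below all hNAG-1 pools. Ppargc1b, the related PGC-1-beta, differed by 0.54 (SE 0.26, adjusted p = 0.440 in limma), the histone acetyltransferase Ep300 by -0.39 (SE 0.19, adjusted p = 0.444 in limma, -0.10 within the slide) and the coactivator Ncoa1 by 0.23 (SE 0.12, adjusted p = 0.456 in limma).

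Cebpa encodes C/EBP-alpha, which sustains Pparg in the mature adipocyte. Its brighter probe (mm7 chromosome 7, 32011212 to 32011271) gave a scaled signal of 33.1, 38.1 and 32.9 in hNAG-1 pools, against 23.5, 29.0 and 29.4 in WT pools. Every hNAG-1 pool lay above every WT pool. The mean was 34.7 ± 2.97 in hNAG-1 and 27.3 ± 3.27 in WT (SD, n = 3 pools each), 1.27-fold or 0.35 on the log2 scale (SE 0.14, 95% CI 0.005 to 0.69), unadjusted p = 0.0475, adjusted p = 0.373 in limma.

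The dimmer Cebpa probe lies 1156 bases away (mm7 chromosome 7, 32010056 to 32010115). It gave 3.77, 4.30 and 4.59 in hNAG-1 pools, against 3.00, 4.16 and 3.69 in WT pools. WT replicate 2 fell among the hNAG-1 pools, and the difference was 0.23 (SE 0.16, adjusted p = 0.589 in limma). Both probes thus gave a difference above 0, and only the brighter kept the genotypes apart. Over 17 alternatives the brighter probe's difference ran between 0.18, with quantile normalization, and 0.54, with normexp background correction. Its unadjusted p was under 0.05 in 4 of them, and within the slide the difference was 0.28.

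Cebpb encodes C/EBP-beta, an early factor of the cascade that also responds to inflammation. Its brighter probe (mm7 chromosome 2, 167483001 to 167483059) gave 19.01, 18.05 and 19.95 in hNAG-1 pools, against 21.2, 16.7 and 22.4 in WT pools. The hNAG-1 pools lay inside the WT range. The difference was -0.07 (SE 0.15, 95% CI -0.44 to 0.29, adjusted p = 0.854 in limma), and the other probe, 538 bases away, gave 0.05 (SE 0.12, adjusted p = 0.891 in limma). Within the slide the brighter probe gave -0.07. The sign turned without WT replicate 3 (0.01) and with normexp background correction (0.11).

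Cebpd encodes C/EBP-delta, the other early factor, which is induced by glucocorticoids and by inflammation. It has 1 probe (mm7 chromosome 16, 15431723 to 15431782). The scaled signal was 5.77, 4.41 and 6.85 in hNAG-1 pools, against 23.3, 7.40 and 7.10 in WT pools. Every hNAG-1 pool lay below every WT pool, narrowly so for hNAG-1 replicate 3 and WT replicate 3, while WT replicate 1 was far above all others. The mean was 5.67 ± 1.22 in hNAG-1 and 12.6 ± 9.29 in WT (SD, n = 3 pools each), a log2 difference of -0.94 (SE 0.50, 95% CI -2.18 to 0.30, adjusted p = 0.474 in limma). This was the largest difference of the 10 genes in size and the one with the widest interval. Without WT replicate 1 it was -0.38 (unadjusted p = 0.157, adjusted p = 0.641 in limma), so the size rests on that pool, and within the slide, which holds that pool, it was -0.89.

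WT replicate 1 was also the highest pool for the sum of genes that respond fast to handling and stress. The 9 such genes measured of 10, among them Fos, Jun and Dusp1, summed to 14.9, 14.6 and 15.5 in hNAG-1 pools, against 22.04, 18.9 and 16.5 in WT pools. Of the 9, 6 had a fold change below 0, with a median of -0.30, and 3 were lower and 1 higher at an unadjusted p under 0.05. The median was -0.12 without WT replicate 1 and -0.11 within the slide. The higher gene was Egr1, an immediate early factor, at 0.28 (SE 0.10, adjusted p = 0.335 in limma), which was lowest of the 6 pools in WT replicate 1 and was named after its values were seen. Dusp1, a phosphatase that shuts off MAP kinases, differed by -0.77 (SE 0.16, adjusted p = 0.206 in limma) and Jun, a subunit of AP-1, by -0.70 (SE 0.20, adjusted p = 0.268 in limma). Klf4, a Krüppel-like factor that acts with the early C/EBPs, had 10.06, 9.48 and 10.01 in hNAG-1 pools, against 22.02, 16.2 and 14.8 in WT pools. Cebpb was not highest in that pool. Whether handling, or the skeletal muscle RNA that was also high in WT replicate 1, had a part in the Cebpd value was not tested.

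Ebf1 encodes early B-cell factor 1, a transcription factor of B lymphocytes that also promotes the formation of fat cells. Its brighter probe (mm7 chromosome 11, 44961616 to 44961675) gave a scaled signal of 1.495, 1.31 and 1.28 in hNAG-1 pools, against 1.77, 1.78 and 1.93 in WT pools. All hNAG-1 pools lay below all WT pools, and the spread within each genotype was small. The mean was 1.36 ± 0.115 in hNAG-1 and 1.83 ± 0.0895 in WT (SD, n = 3 pools each). The log2 difference was -0.43 (SE 0.11, 95% CI -0.71 to -0.14), unadjusted p = 0.0107, adjusted p = 0.257 in limma, and it ranked 878 of all genes by p. Its p was the smallest of the 10 in this fit, but not in every alternative. With a fixed slide block the unadjusted p in limma was 0.121, against 0.0811 for Dlk1. With normexp background correction it was 0.186, against 0.0792 for Cebpa. Over 17 alternatives the Ebf1 difference ran between -0.49 and -0.29, and its adjusted p between 0.125 and 0.900. Its unadjusted p was under 0.05 in 14 of them, including all 6 that leave out 1 pool. Within the slide the difference was -0.29, with only hNAG-1 replicate 1 on that side.

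The other Ebf1 probe lies 355.7 kb away on mm7 (chromosome 11, 44605869 to 44605928) and was designed on another transcript, a cDNA clone. It gave 0.172 and 0.179 in hNAG-1 replicates 1 and 2, against 0.181, 0.216 and 0.180 in WT pools. The spot of hNAG-1 replicate 3 was marked as an outlier by the scanner, with a processed signal of 5282 where the other arrays had 132 to 206, and was left out. On the 5 arrays left, the difference was -0.13 (SE 0.15, adjusted p = 0.732 in limma). The hNAG-1 arrays again lay below the WT arrays, by less than the error.

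Ebf1 is expressed by both B lymphocytes and the precursors of fat cells, so the markers of each are given beside it. All 8 B lymphocyte markers measured had a fold change above 0, with a median of 0.57 (0.10 within the slide with 4 above 0, 0.23 without hNAG-1 replicate 2 and 0.03 with normexp background correction), and their summed scaled signal was 2.10 to 4.01 in hNAG-1 pools, against 1.35 to 2.65 in WT pools. The 2 with the largest moderated t were Vpreb3, at 1.23 (SE 0.28, adjusted p = 0.215 in limma), and Ms4a1, at 0.81 (SE 0.35, adjusted p = 0.398 in limma, 0.41 within the slide). The fold change of Ebf1 thus had the opposite sign to theirs. Of 16 markers of preadipocytes and fibroblasts, 13 lay below 0, with a median of -0.25 (-0.18 within the slide, -0.14 without hNAG-1 replicate 2 and -0.08 with normexp background correction, where it was 0.11 relative to all genes), and 3 were lower at an unadjusted p under 0.05. Their summed signal was 506 to 593 in hNAG-1 pools, against 569 to 663 in WT pools, and the leading ones were Fn1 (fibronectin), at -0.79 (SE 0.18), and Ly6a, at -0.51 (SE 0.15). Their part in the Ebf1 value was not tested.

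**Figure D3:**
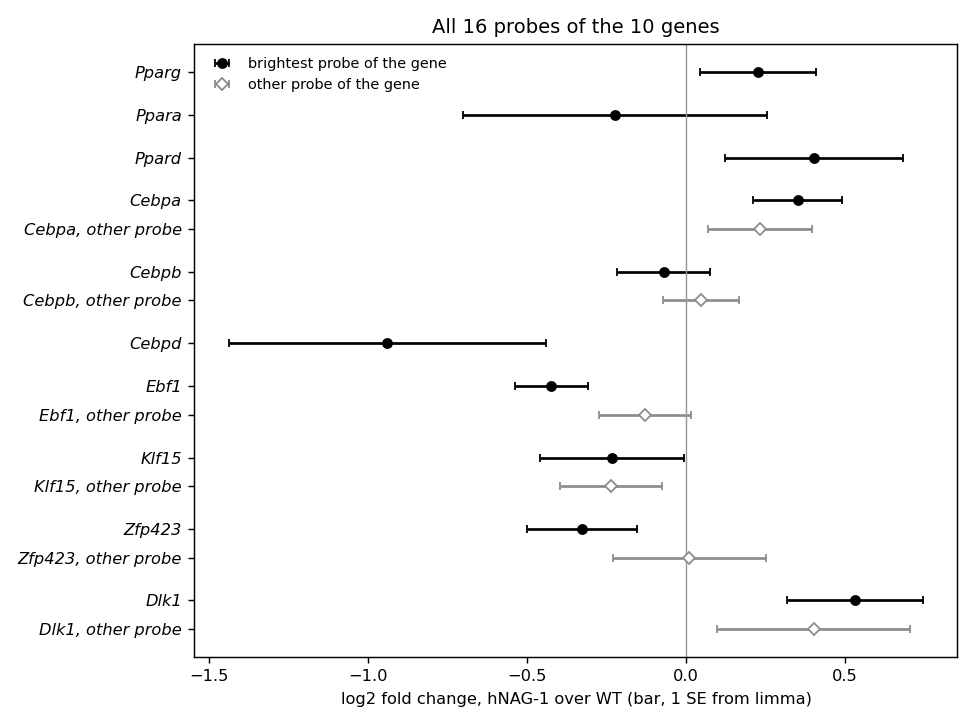
Log2 fold change, hNAG-1 over WT, of all 16 probes of the 10 genes, with 1 SE from limma, filled for the brightest probe of each gene and open for the other. The probe pairs of Cebpa, Klf15 and Dlk1 lie on the same side of 0, the second Ebf1 probe lies nearer 0 (-0.13) than the first (-0.43), and the second probes of Zfp423 (0.01) and Cebpb (0.05) lie across 0 from the first.

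Klf15 encodes a Krüppel-like factor that promotes adipocyte differentiation and is induced by glucocorticoids and fasting. Its brighter probe (mm7 chromosome 6, 90553698 to 90553757) gave 6.95, 7.39 and 5.14 in hNAG-1 pools, against 7.62, 5.97 and 9.44 in WT pools. The pools overlapped, and the difference was -0.23 (SE 0.23, 95% CI -0.80 to 0.33, adjusted p = 0.686 in limma). The other probe, 816 bases away, gave -0.24 (SE 0.16, adjusted p = 0.577 in limma), close to the first in size. The first probe's difference was -0.07 without hNAG-1 replicate 3 and also without WT replicate 3, and -0.40 without WT replicate 2, and within the slide it was -0.12.

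Zfp423 encodes a zinc finger factor of preadipocyte commitment that also represses the thermogenic genes of white adipocytes. Its brighter probe (mm7 chromosome 8, 86252638 to 86252697) gave 0.735, 0.677 and 0.762 in hNAG-1 pools, against 0.744, 0.905 and 1.11 in WT pools. The hNAG-1 pools lay together at the low end and WT replicate 1 among them. The difference was -0.33 (SE 0.17, 95% CI -0.76 to 0.10, adjusted p = 0.470 in limma). It was -0.47 without WT replicate 1 (unadjusted p = 0.0315), -0.18 without WT replicate 3 and -0.31 within the slide. The other probe, 113.3 kb away on mm7, had 0.356, 0.529 and 0.617 in hNAG-1 pools, against 0.408, 0.507 and 0.551 in WT pools, and a difference of 0.01 (SE 0.24). The 2 probes of this gene disagree, and the ends the array design gives the other probe lie 6607 bases apart on mm7.

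Dlk1 encodes preadipocyte factor 1, an imprinted surface protein related to the NOTCH ligands that falls as fat cells differentiate. Its brighter probe (mm7 chromosome 12, 106981689 to 106981748) gave 0.649, 0.522 and 0.575 in hNAG-1 pools, against 0.319, 0.531 and 0.381 in WT pools. WT replicate 2 lay just above hNAG-1 replicate 2 and the other WT pools lay below all hNAG-1 pools. The mean was 0.582 ± 0.0638 in hNAG-1 and 0.411 ± 0.109 in WT (SD, n = 3 pools each). The difference was 0.53 (SE 0.21, 95% CI -0.002 to 1.06), unadjusted p = 0.0507, adjusted p = 0.377 in limma. The other probe, 239 bases away, had 0.150, 0.128 and 0.112 in hNAG-1 pools, against 0.0752, 0.154 and 0.0808 in WT pools, and a difference of 0.40 (SE 0.30, adjusted p = 0.613 in limma). On this other probe WT replicate 2 was the highest of all 6 pools. Without WT replicate 2 the brighter probe's difference was 0.73 (unadjusted p = 0.00749, adjusted p = 0.422 in limma). Without WT replicate 1 it was 0.365 (unadjusted p = 0.141 in limma). Of the 6 fits that leave out 1 array, 1 had an unadjusted p under 0.05. Within the slide the difference was 0.69.

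The spread between pools differed by genotype for the brightest probes of these genes. On them the SD of the log2 signal was larger in WT than in hNAG-1 for 8 of the 10, all but Ppard and Ebf1. The median SD was 0.14 in hNAG-1 and 0.32 in WT. The other probes of Klf15 (0.23 in hNAG-1, 0.15 in WT) and Zfp423 (0.41 in hNAG-1, 0.22 in WT) went the other way. Those of Cebpa, Cebpb, Dlk1 and, with 2 hNAG-1 arrays, Ebf1 had the larger SD in WT. Over all genes it was larger in WT for 52.6%, with a median of 0.19 in hNAG-1 and 0.21 in WT. This difference in spread was not tested.

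**Figure D4:**
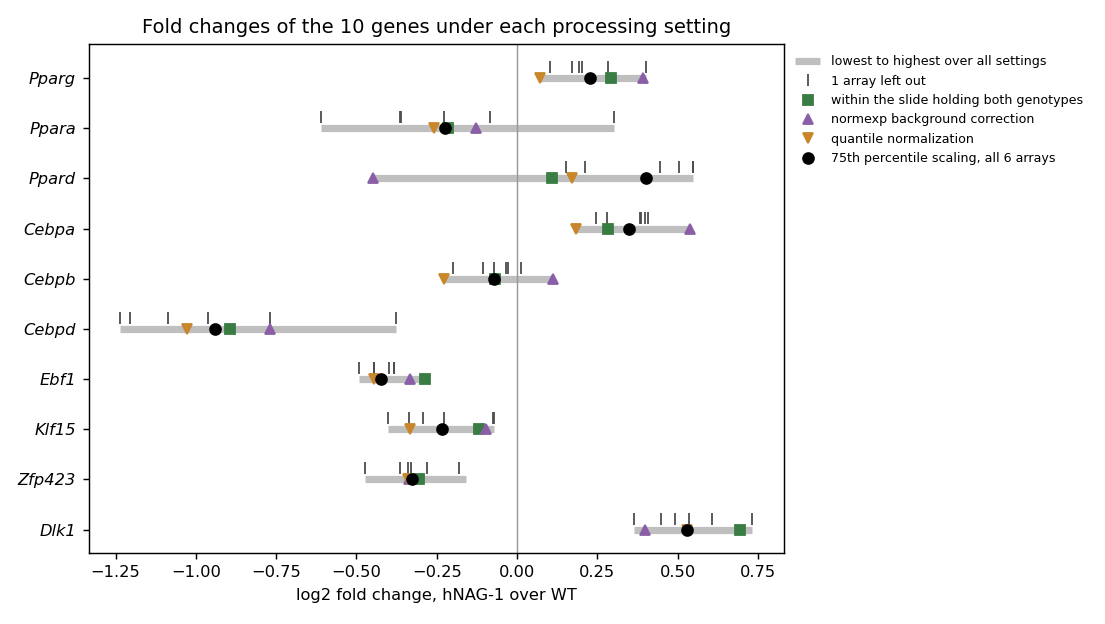
Log2 fold change of each gene, hNAG-1 over WT, under each processing setting, with the lowest and highest as a grey bar and the fits that leave out 1 array as ticks. Pparg, Cebpa, Cebpd, Ebf1, Klf15, Zfp423 and Dlk1 keep 1 sign throughout, and the bars of Ppara, Ppard and Cebpb cross 0.

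The genes downstream of PPAR-gamma and the C/EBPs in adipocytes were taken from a list of 28. The list was chosen with earlier results of these data known, so its counts are a description and not a test. Of the 28 genes, 22 had a fold change above 0 and 6 below, with a median of 0.36. At an unadjusted p under 0.05 there were 11 higher and 1 lower, against 9.67% and 3.62% of all genes, with 0 past the adjusted threshold. Within the slide the median was 0.19 with 3 higher and 2 lower, and with quantile normalization it was 0.16 with 8 higher and 2 lower. Leaving out single pools, the count of higher genes was 6 without WT replicate 2 and 7 without hNAG-1 replicate 2. The lower gene was Sncg, gamma-synuclein, with 11.2, 10.8 and 12.9 in hNAG-1 pools, against 23.7, 29.1 and 30.9 in WT pools, and a difference of -1.26 (SE 0.15, adjusted p = 0.165 in limma). All hNAG-1 pools were below all WT pools, the opposite direction to most of its list. The leading higher genes act in lipid uptake and synthesis. Agpat2, an acyltransferase of triglyceride synthesis, differed by 1.55 (SE 0.20), Slc27a1, a fatty acid transporter, by 1.30 (SE 0.25) and Scd1, the stearoyl-CoA desaturase, by 0.55 (SE 0.12). Pparg and Cebpa themselves differed by 0.23 and 0.35.

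Most of the 12 adipocyte markers are also in that list: Adipoq, Plin1, Cidec, Lep, Cfd, Lipe, Pnpla2, Fabp4 and Aqp7. They therefore cannot measure adipocyte content separately from the targets of these factors. Of these, 8 lay above 0, with a median of 0.16 (-0.02 within the slide and -0.06 with quantile normalization), and their summed scaled signal was 1868 to 2282 in hNAG-1 pools, against 1547 to 1865 in WT pools. The leading ones were Fabp4, the fatty acid binding protein of adipocytes, at 0.41 (SE 0.15, 0.19 within the slide), and Pnpla2, the triglyceride lipase, at 0.28 (SE 0.12). Adipoq differed by 0.11 (SE 0.12, -0.02 within the slide) and Plin1 by 0.34 (SE 0.18, 0.13 within the slide). The other 4 markers lay below 0. Among them was Lep, the leptin gene, at -0.805 (SE 0.425, adjusted p = 0.471 in limma), named after its values were seen. It had 8.52, 6.28 and 8.59 in hNAG-1 pools, against 8.76, 10.9 and 25.8 in WT pools. Under the 75th percentile scaling, the lowest hNAG-1 sum, 1868 in replicate 1, lay barely above the highest WT sum, 1865 in replicate 3. The median over the 12 markers, against the WT mean, was -0.015 in hNAG-1 replicate 1 and 0.14 in WT replicate 3. The part of adipocyte content in the values of Pparg, Cebpa and their targets was not tested. Among markers of other cells, 11 of 12 macrophage genes lay below 0, with a median of -0.30. It was -0.18 with normexp background correction, which was 0.009 relative to all genes. All 7 smooth muscle genes lay below 0, with a median of -1.42 that was -0.89 without WT replicate 2 and -2.30 without WT replicate 3, and their summed scaled signal was 56.6 to 88.0 in hNAG-1 pools, against 309, 385 and 57.0 in WT pools. All 7 T lymphocyte genes lay above 0, with a median of 0.49 that was 0.02 within the slide, 0.19 without hNAG-1 replicate 2 and -0.27 with normexp background correction, and their sum was 0.768, 1.75 and 0.734 in hNAG-1 pools, against 0.612 to 0.791 in WT pools.

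The genes that PPAR-alpha and PPAR-delta turn on, those of fatty acid uptake and oxidation, were taken from a list of 28. Of these, 15 lay above 0 and 13 below, with a median of 0.14 (0.21 within the slide), and 4 were higher and 2 lower at an unadjusted p under 0.05, with 0 past the adjusted threshold. Without WT replicate 2, the pool high in Ppara, 20 lay above 0 with a median of 0.24. Without WT replicate 1 the median was 0.01, without WT replicate 3 it was 0.05 and without hNAG-1 replicate 1 it was 0.06, and with quantile normalization the median was -0.004. The leading genes went both ways. Plin2, a lipid droplet coat, had 109, 133 and 117 in hNAG-1 pools, against 46.7, 55.8 and 80.3 in WT pools, and differed by 1.00 (SE 0.22, adjusted p = 0.215 in limma). Acot2, a mitochondrial thioesterase, differed by 0.70 (SE 0.24, adjusted p = 0.328 in limma). Ucp2, a mitochondrial carrier, differed by -0.72 (SE 0.17, adjusted p = 0.219 in limma). Cpt1a, the carnitine palmitoyltransferase that brings fatty acids into mitochondria, had 2.61, 2.54 and 2.64 in hNAG-1 pools, against 3.54, 3.69 and 3.24 in WT pools, a difference of -0.42 (SE 0.11, adjusted p = 0.240 in limma).

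Other factors that promote the formation of fat cells were measured from a list of 18. Of these, 9 lay above 0 and 9 below, with a median of 0.02 (0.13 within the slide). At an unadjusted p under 0.05 there were 2 higher and 1 lower. Those higher were the lipogenic factors Mlxipl (ChREBP), at 1.27 (SE 0.14), and Srebf1 (SREBP-1), at 1.00 (SE 0.20), and the lower one was Klf4, at -0.82 (SE 0.17, adjusted p = 0.206 in limma). Stat5a, a signal transducer that acts upstream of Pparg, differed by 0.29 (SE 0.14, adjusted p = 0.428 in limma, 0.13 within the slide).

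Of 24 factors that oppose the formation of fat cells, 8 lay above 0 and 16 below, with a median of -0.08 (-0.14 within the slide). At an unadjusted p under 0.05 there were 2 higher and 3 lower, with 0 past the adjusted threshold. Ccn5, also called WISP2, is a secreted WNT-related protein that holds ZFP423 outside the nucleus of precursor cells. Its scaled signal was 2.23, 1.82 and 1.35 in hNAG-1 pools, against 0.598, 0.370 and 0.628 in WT pools. Every hNAG-1 pool lay above every WT pool, with a difference of 1.77 (SE 0.28, unadjusted p = 0.000914, adjusted p = 0.166 in limma) and 2.11 within the slide. Sox9, a factor of cartilage and of preadipocytes, differed by 0.74 (SE 0.25, adjusted p = 0.314 in limma, 0.04 with normexp background correction), Klf7 by -0.44 (SE 0.12, adjusted p = 0.248 in limma) and Foxo1, a target of insulin signalling, by -0.36 (SE 0.13, adjusted p = 0.356 in limma).

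The last list held the NOTCH pathway and imprinted genes, a few of them, such as Meg3 and Dio3, from the Dlk1 region and the others from elsewhere in the genome, and of it 20 of 21 were measured. Here 3 lay above 0 and 17 below, with a median of -0.22 (-0.49 within the slide), and 1 was higher and 4 lower at an unadjusted p under 0.05. Without hNAG-1 replicate 1, 7 lay above 0 with a median of -0.12. Dlk1, at 0.53, thus differed in sign from most of these genes. The imprinted genes Mest and Peg3 differed by -1.90 (SE 0.30) and -1.68 (SE 0.31). Cdkn1c, an imprinted inhibitor of the cell cycle, had 7.03, 6.86 and 7.99 in hNAG-1 pools, against 5.10, 4.53 and 5.12 in WT pools, and differed by 0.57 (SE 0.12, adjusted p = 0.206 in limma). All its hNAG-1 pools lay above all its WT pools. Dll1, a NOTCH ligand, differed by -0.31 (SE 0.10, adjusted p = 0.314 in limma). Meg3, the RNA expressed from the other parental copy of the Dlk1 region, had 10.03, 10.4 and 7.85 in hNAG-1 pools, against 11.4, 10.3 and 10.7 in WT pools, a difference of -0.21 (SE 0.15, adjusted p = 0.581 in limma, -0.10 within the slide), and was named after its values were seen.

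**Figure D5:**
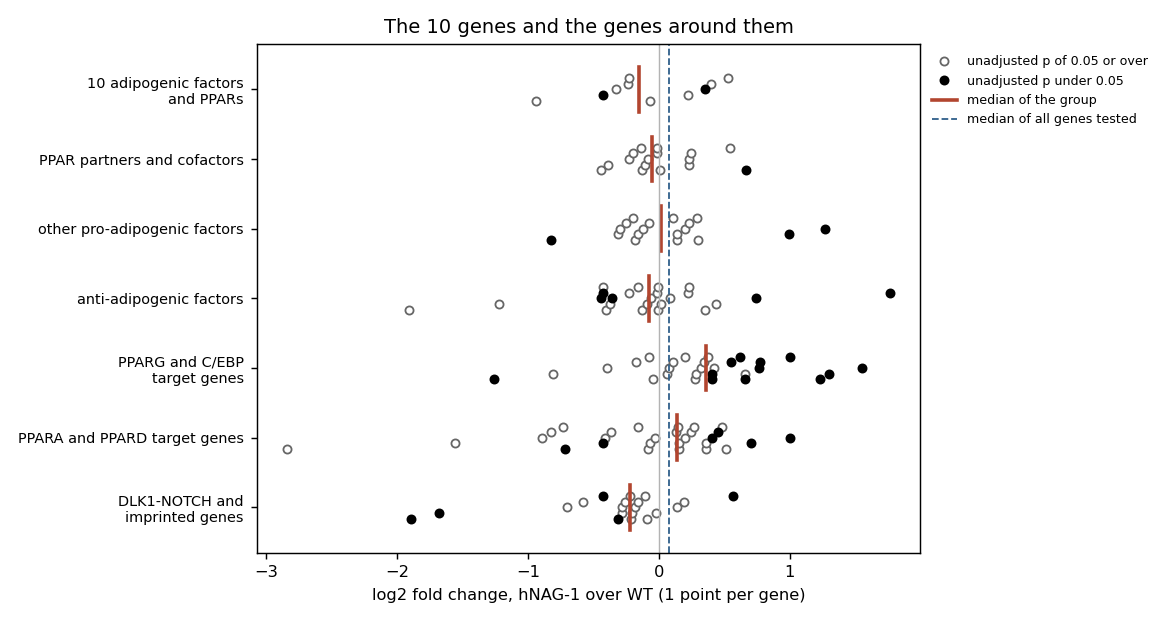
Log2 fold change, hNAG-1 over WT, of each of the 10 genes and of each gene in the 6 lists around them, filled where the unadjusted p in limma is under 0.05, with the median of each group in red and that of all genes dashed. The PPARG and C/EBP targets have the highest median (0.36) and the DLK1-NOTCH and imprinted genes the lowest (-0.22), and the 10 genes lie at -0.15.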

How the data were processed

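Total RNA of abdominal WAT was hybridised with 1 dye to Agilent mouse arrays, 6 in all. The study's methods name another maker's array, and the deposited scanner files are Agilent's. The authors deposited for each array the intensity of every spot from Agilent Feature Extraction 9.5 (the submitters' processing notes), background-subtracted within the array. Their value table equals that processed signal in all 45018 rows (relative tolerance 0.0001), so the deposited values are linear intensities with no normalization between arrays. Here 1639 control spots were removed together with spots the scanner marked as outliers, and replicate spots were averaged per probe. The log2 processed signal was then scaled by subtracting the 75th percentile of each array. Probes had to be well above background on 3 or more arrays, and the brightest such probe stands for its gene. Genes were named through RefSeq accession, symbol or synonym, 8455 probes keeping the file's name, and 2 probes of Cklf were kept out of Klf15, whose older symbol it shares. Probe positions come from the array design (mm7), for which no exon annotation was used here.

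hNAG-1 was tested against WT in limma 3.58.1 (lmFit, then eBayes) under R 4.3.3. Tests were two-sided, adjusted by Benjamini-Hochberg across the 21057 genes, and called at 0.05. Each pool holds different mice and had 1 array, so p-values reflect how pools and arrays vary together, and 3 per genotype limit the precision. Slide and genotype partly coincide, since hNAG-1 replicates 2 and 3 were alone on their slide, and the main fit does not separate the 2. Other settings tried were normexp background correction (offset 50), quantile normalization, a stricter filter on dim probes or none, averaging or separating the probes of a gene, trended and robust variances, a block for slide or for replicate number, the slide with both genotypes alone, and leaving out each array. The genes and lists were chosen with earlier results of these data known. Genes named beyond the 10 are the 4 of each pathway list with the largest moderated t, Adipoq and Plin1, and those said to be named after their values were seen. Of the adipocyte, preadipocyte, B lymphocyte and stress lists, the 2 with the largest moderated t are named. Of the pancreas list only Cpa1 is named, and of the macrophage, T lymphocyte, smooth muscle and skeletal muscle lists no gene is. Fos and Dio3 are named without values.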

Additional observations from a re-analysis of the deposited data

How the results depend on the processing

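Adjusted calls among the 10 genes were 0 under each alternative, and over all genes they were 0 except for 165 with trended and robust variances. The sign turned for Ppara without WT replicate 2 (0.301, with -0.61 at the other end of the fits that leave out 1 array), for Ppard with normexp background correction (-0.449) and for Cebpb with normexp (0.112) and without WT replicate 3 (0.013, and down to -0.2 with other arrays left out). The count of the 10 at an unadjusted p under 0.05, 2 as reported, was 0 with normexp, within the slide and with a fixed slide block, 1 without a filter, with averaged probes and with a random slide block, and 1 to 3 with 1 array left out. The number whose arrays did not overlap, 3, was 1 with normexp, 5 within the slide, where hNAG-1 has 1 array, and up to 7 with 1 array left out. Groups with fewer arrays fail to overlap more often by order alone. The share of all genes, 20.9%, was taken with all arrays and not under these settings. The counts of 5 and 7 therefore cannot be read as a stronger separation of the genotypes. The median of the 10, -0.148, was -0.243 with quantile normalization and -0.158 to -0.015 with 1 array left out. The causes were not tested. Normexp moved the median of all genes to -0.19, against 0.08, and relative to it Cebpb, Ppara and Klf15 lay above 0, at 0.31, 0.07 and 0.10. Genes at an unadjusted p under 0.05 numbered 2799, with 469 under normexp, 1661 with a fixed slide block, 1316 within the slide, 1665 without hNAG-1 replicate 2 and 1824 without WT replicate 1. With the replicate number as a block the counts were 2513 over all genes and 1 of the 10. Deviations of same-numbered pools correlated at r = 0.098, 0.512 and 0.095 across genes, and those of other pairs at -0.42 to 0.344. The hNAG-1 replicates 1 and 3 did not correlate best with their own number. With 3 pools per genotype these values cannot decide whether same-numbered pools were paired. Dim probes limit Ppard, which the strictest filter left out.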
